A study of Mus musculus with 12 samples.

Results

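The expression of 50 nucleolar genes of ribosome biogenesis was followed in 2 mouse testis cell lines after shRNA treatment against the muscarinic acetylcholine receptor M5. The genes were chosen by name, from what their products are known to do, but with earlier results of these data known. All 50 were found among the 17995 genes of the expression table. They fell into 7 groups by role, with 4 genes of RNA polymerase I transcription, 3 abundant nucleolar chaperones, 3 proteins of the box C/D and 4 of the box H/ACA ribonucleoproteins, 14 components of the small subunit processome, 5 late small subunit factors and 17 factors of large subunit assembly. Every one of the 50 had a mean above the minimum of 0.5 RPKM for testing, and none was lost from any comparison.

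Poly(A)-selected RNA of the mouse lines C18-4, established from spermatogonial stem cells, and TM4, established from Sertoli cells, had been sequenced. In each line 3 libraries of cells given shM5, a mixture of shRNAs to different positions of the M5 gene Chrm5, were compared to 3 libraries of cells given the control shRNA shNC, which makes 12 libraries in 4 groups. The shRNAs were introduced in lentiviral constructs, so both groups carried a construct, and the sample labels gave the strain as IRC, where the methods of the study name ICR mice. C18-4 cells were kept in DMEM/F12 and TM4 cells in DMEM, both with serum, so the line and its medium cannot be told apart. No source said that the 3 libraries of a group came from separate cultures, and a p-value here measures only the spread between these libraries.

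Ribosome production starts in the nucleolus, where RNA polymerase I transcribes a long precursor of the rRNAs of both subunits. Small nucleolar RNAs (snoRNAs) guide the chemical modification of this precursor, the box C/D class directing ribose methylation and the box H/ACA class directing pseudouridylation, while the processome folds and cuts the small subunit part and separate factors build the large subunit. The demand for these factors follows growth and protein synthesis, and Myc, a transcription factor that binds the sequence CACGTG together with Max, is known to activate many of their genes.

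Beyond the role used to choose them, the genes shared some sequence features. In the GENCODE annotation of mouse build GRCm38, 7 of the 50 genes (14.0%) held a snoRNA gene in an intron, against 1.17% of 21951 protein-coding genes, with 20 such snoRNA genes in Nop56, Nop58, Wdr43, Gnl3, Ncl, Tsr1 and Dkc1. The 4 sequences below are shown because they lie inside host genes whose expression is described further on. The box C motif (ATGATGA or GTGATGA) and the box D motif (CTGA) are in capitals, and 8 of the 20 held the first near their start and the second near their end.
Snord110 in Nop56, chr2:130275506-130275573, plus strand: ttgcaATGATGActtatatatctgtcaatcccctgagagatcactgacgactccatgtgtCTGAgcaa
Snord11 in Nop58, chr1:59704790-59704873, plus strand: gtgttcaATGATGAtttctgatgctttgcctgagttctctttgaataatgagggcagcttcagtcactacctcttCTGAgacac
Snord92 in Wdr43, chr17:71631281-71631365, plus strand: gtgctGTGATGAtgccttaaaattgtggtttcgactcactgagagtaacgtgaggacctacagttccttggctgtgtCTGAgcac
Snord69 in Gnl3, chr14:31014287-31014366, minus strand: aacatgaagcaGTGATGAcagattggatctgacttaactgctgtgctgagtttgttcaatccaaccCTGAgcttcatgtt

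Promoters were read from RefSeq (build GRCm38.p6) as 250 bases before to 50 bases after the start of transcription, and 43 of the 50 genes had an entry. CACGTG, which reads the same on both strands, occurred in 8 of these 43 promoters (18.6%), against 8.09% of 27025 promoters and 11.9% of the 9433 promoters whose genes averaged 0.5 RPKM or more here. In 6 of the 43 (14.0%) it began after the start of transcription, against 1.28% and 1.97% in the same sets. CACGCG, searched on both strands, occurred in 14 of 43 (32.6%), against 10.5% and 20.7%. The 8 sites are given in 30 bases each, 5′ to 3′ on the strand of the gene and with the motif in capitals, because it is the sequence that Myc binds and the level of Myc is given beside the results. A match to these letters describes the sequence and is not a measured binding site.
Nop2, chr6:125131811-125131840: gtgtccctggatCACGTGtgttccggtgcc
Utp4, chr8:106893643-106893672: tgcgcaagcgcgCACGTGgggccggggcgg
Ltv1, chr10:13193092-13193121: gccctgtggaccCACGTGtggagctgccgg
Utp20, chr10:88826765-88826794: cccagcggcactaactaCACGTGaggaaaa
Pes1, chr11:3963965-3963994: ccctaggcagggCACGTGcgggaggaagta
Tsr1, chr11:74898092-74898121: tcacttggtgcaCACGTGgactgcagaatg
Utp18, chr11:93885769-93885798: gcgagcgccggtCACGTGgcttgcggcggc
Wdr43, chr17:71616220-71616249: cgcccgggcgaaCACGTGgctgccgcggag

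Some properties of the libraries touched all results. Chrm5, the target of shM5, was at 0 or 0.01 RPKM in each of the 12 libraries, shNC included, so its RNA gave no check of the knockdown. The lines were checked against marker genes: in C18-4 cells the spermatogonial gene Uchl1 was at 76.8 to 140 RPKM, but Gfra1 was at most 0.34 RPKM and Ret, Zbtb16, Ddx4 and Dazl were at or near 0, while Wt1, a Sertoli cell transcription factor, was at 53.9 to 72.3 RPKM. In TM4 cells Wt1 was at most 0.15 RPKM and Amh at most 0.19 RPKM, Sox9 was at 1.11 to 1.74 RPKM and Kitl at 18.4 to 49.5 RPKM. The markers therefore supported the labelled cell types only in part, and the lines are called by their names here. Libraries did not all resemble their group: TM4 shNC replicate 3 lay near the shM5 libraries, and replicate 3 of both C18-4 groups lay apart from replicates 1 and 2.

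The genes were expressed at moderate to very high levels. Npm1, which encodes the nucleolar chaperone nucleophosmin, was the most abundant of the 50 in both lines, with a mean of 1713 RPKM in C18-4 cells and 1319 RPKM in TM4 cells, and ranked above 99.9% and 99.7% of the genes in the table. Ncl, encoding nucleolin, was second in both lines, with 265 and 364 RPKM. At the other end, the lowest single value among all members and libraries was 8.79 RPKM, for the RNA polymerase I subunit gene Polr1b in C18-4 shNC replicate 3. RPKM is corrected for gene length, so these levels can be set beside each other.

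In each role the gene with the highest mean over all libraries was Ddx21 for RNA polymerase I transcription (90.9 RPKM), Npm1 for the chaperones (1516 RPKM), Nop56 for box C/D (262 RPKM), Nop10 for box H/ACA (98.2 RPKM), Utp4 for the processome (102 RPKM), Nob1 for late small subunit maturation (54.5 RPKM) and Ddx18 for large subunit assembly (82.1 RPKM). Summed over the 50 genes, the level was 3665 to 4881 RPKM in C18-4 libraries. In TM4 cells it was 6213 and 6294 RPKM in shNC replicates 1 and 2, 4420 RPKM in shNC replicate 3, and 4042 to 4484 RPKM in the 3 shM5 libraries. The sum was thus 1.20% and 1.23% of all RPKM in the first pair of shNC libraries and 0.755% to 0.837% in the other 4 TM4 libraries, without overlap. The plot of all 50 genes by library shows how widely this pattern was shared.

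By library (replicates 1, 2 and 3), Ddx21 was at 89.3, 90.2 and 58.7 RPKM in C18-4 shNC, 82.4, 80.1 and 70.4 RPKM in C18-4 shM5, 137, 142 and 87.9 RPKM in TM4 shNC and 83.6, 79.8 and 89.1 RPKM in TM4 shM5. Ddx18 was at 59.6, 58.1 and 51.7 RPKM in C18-4 shNC, 54.1, 56.8 and 55.8 RPKM in C18-4 shM5, 159, 157 and 87.0 RPKM in TM4 shNC and 79.2, 78.9 and 87.8 RPKM in TM4 shM5. For both helicases TM4 shNC replicates 1 and 2 were the highest of the 12 libraries and C18-4 shNC replicate 3 was the lowest. Nop10, a small core protein of the box H/ACA particle, was at 107, 95.3 and 78.4 RPKM in C18-4 shNC, 104, 106 and 86.2 RPKM in C18-4 shM5, 102, 106 and 99.5 RPKM in TM4 shNC and 97.9, 101 and 94.6 RPKM in TM4 shM5. Its groups overlapped in both lines and between the lines. Utp4 was at 84.5, 80.5 and 63.6 RPKM in C18-4 shNC, 83.4, 83.8 and 72.1 RPKM in C18-4 shM5, 151, 152 and 111 RPKM in TM4 shNC and 111, 111 and 119 RPKM in TM4 shM5. Nob1 was at 46.0, 42.3 and 33.9 RPKM in C18-4 shNC, 40.3, 43.4 and 37.2 RPKM in C18-4 shM5, 81.8, 77.9 and 65.3 RPKM in TM4 shNC and 61.0, 59.3 and 65.5 RPKM in TM4 shM5. In these last 2 genes every TM4 library was above every C18-4 library.

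**Figure D1:**
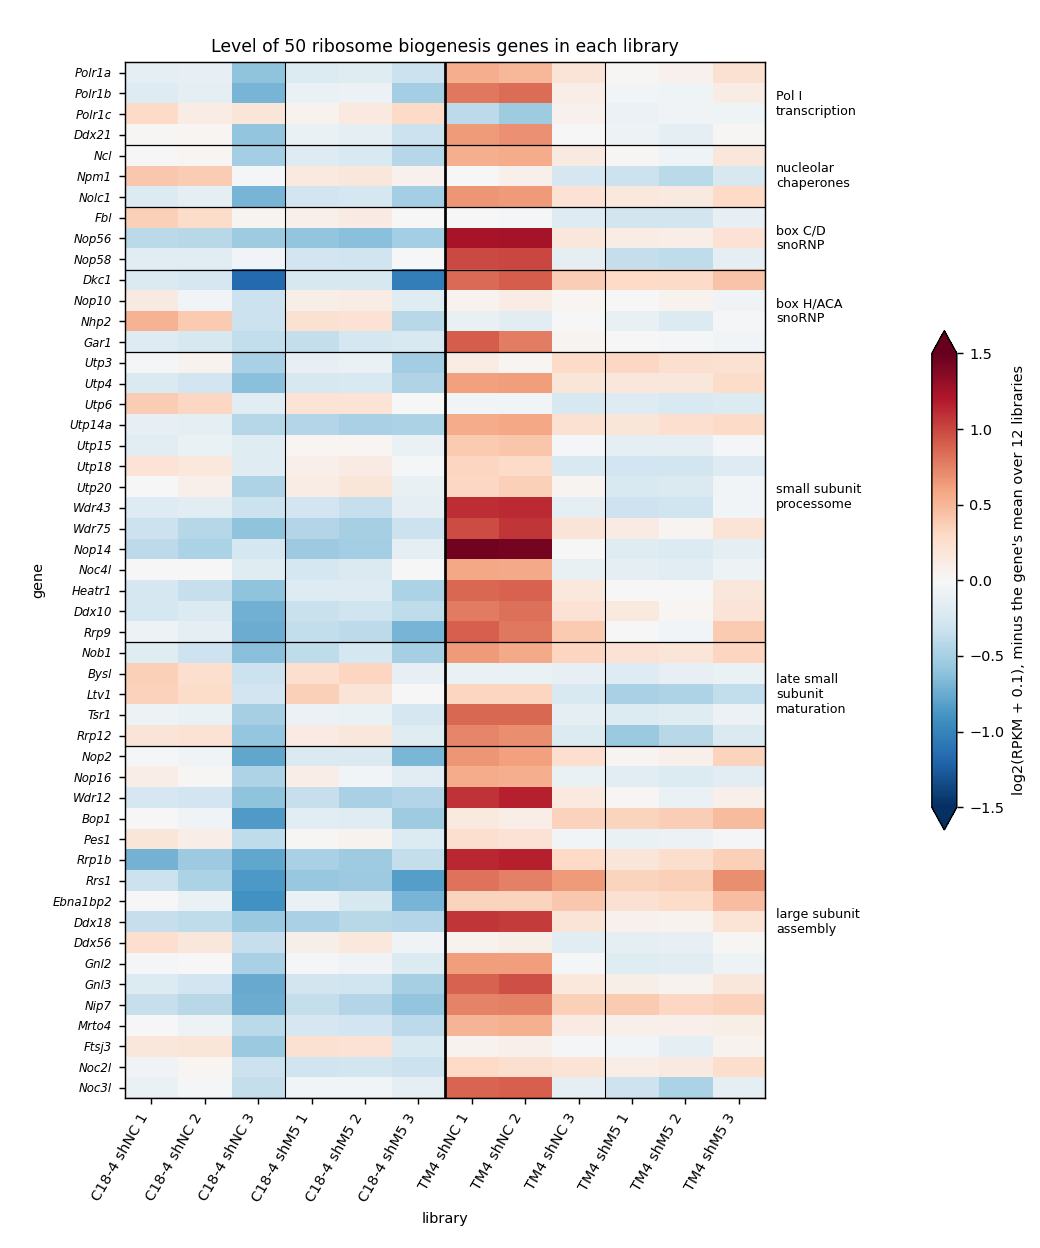
Level of each of the 50 genes (horizontal bands, grouped by role) in each of the 12 libraries (columns), as log2(RPKM + 0.1) minus the gene's own mean over the 12 libraries. Red is above and blue below that mean. TM4 shNC replicates 1 and 2 were the highest libraries for most genes, and C18-4 shNC replicate 3 was the lowest for many.

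In TM4 cells the question was whether shM5 changed these genes compared to shNC. With all 6 libraries, 47 of the 50 genes were lower in shM5 and 3 were higher (Polr1c, Bop1 and Utp3), where 46% of all 11016 genes tested were lower. The median difference was -0.37 on the log2(RPKM + 0.1) scale, which is 1.29-fold, and the median of all genes was 0.04. None of the 50 passed the test, which was limma with Benjamini-Hochberg adjustment over all genes tested and a threshold of 0.05. The smallest adjusted p among them was 0.192, and no gene of the table passed either (0 of 11016, 0%). At an unadjusted p below 0.05, 32 of the 50 were lower and 0 higher, against 11% lower and 15% higher of all genes. In bulk RNA of this kind, less of a transcript per cell and fewer cells that hold it cannot be told apart.

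This outcome turned on which control libraries were used, because shNC replicate 3 differed from shNC replicates 1 and 2. Nop14, a processome protein needed for cutting the small subunit precursor, was at 197, 196 and 72.1 RPKM in shNC replicates 1, 2 and 3, and at 63.7, 62.9 and 65.2 RPKM in shM5. The shM5 libraries were all below the shNC libraries, but shNC replicate 3 stood close to shM5 and far from its own group. Its log2 difference was the largest of the 50, at -1.14 ± 0.38 (SE, n = 3 against 3, limma adjusted p = 0.192). Without shNC replicate 3 it was -1.62 ± 0.04 (n = 2 against 3, limma adjusted p = 2.19e-07), a 3.07-fold lower level. This library was left out on account of its values. The p-values and calls without it, here and below, therefore describe that fit and are no valid test of shM5.

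Wdr43, another processome protein, was at 186, 188 and 78.1 RPKM in shNC and at 69.9, 70.1 and 84.1 RPKM in shM5, and here shNC replicate 3 lay inside the shM5 range. The log2 difference was -0.91 ± 0.34 (adjusted p = 0.192) with all libraries and -1.33 ± 0.08 (adjusted p = 6.72e-06) without shNC replicate 3. Nop58, a core protein of the box C/D ribonucleoprotein, was at 297, 301 and 135 RPKM in shNC and at 117, 115 and 137 RPKM in shM5. Its groups overlapped as well, through shNC replicate 3 and shM5 replicate 3, and its log2 difference was -0.91 ± 0.31 with and -1.29 ± 0.07 (adjusted p = 5.50e-06) without shNC replicate 3.

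The 3 genes on the other side moved less. Polr1c, a subunit shared by RNA polymerases I and III, was at 28.5, 25.9 and 39.1 RPKM in shNC and at 35.3, 35.9 and 35.8 RPKM in shM5. Bop1, of the complex that it forms with Pes1 and Wdr12 on large subunit precursors, was at 49.4, 47.7 and 56.4 RPKM and at 56.3, 57.7 and 62.1 RPKM. Utp3, a processome protein, was at 59.4, 56.2 and 66.7 RPKM and at 68.0, 65.0 and 64.2 RPKM. In all 3 the first pair of shNC libraries was below shM5 and shNC replicate 3 was not. With all libraries the log2 differences were 0.22 ± 0.15, 0.20 ± 0.09 and 0.12 ± 0.09, with adjusted p of 0.329, 0.195 and 0.340.

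**Figure D2:**
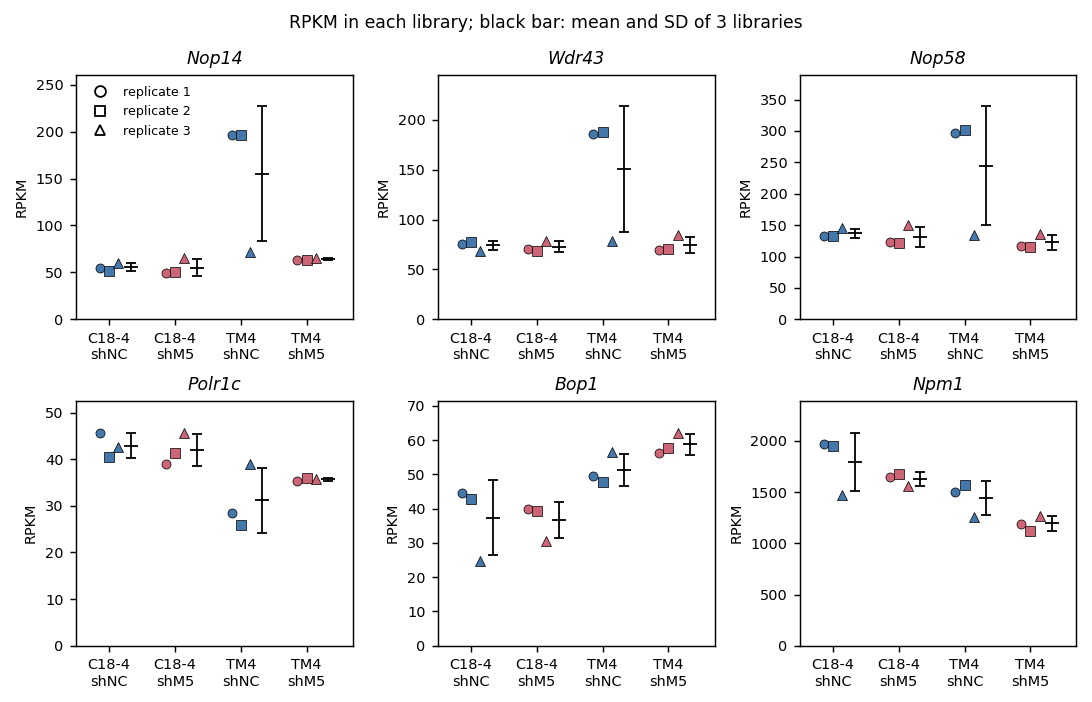
RPKM of 6 genes in each library, with circles, squares and triangles for replicates 1, 2 and 3, blue for shNC and red for shM5, and the mean with SD of the 3 libraries in black. In TM4 cells shNC replicate 3 sat beside the shM5 libraries for Nop14, Wdr43 and Nop58, and above shNC replicates 1 and 2 for Polr1c and Bop1.

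Across the 50 genes, TM4 shNC replicate 3 was below the mean of shNC replicates 1 and 2 in 45, with a median difference of -0.44 log2, where 47.9% of all genes were below. The range ran from -1.44 for Nop14 to 0.52 for Polr1c. Against the mean of the 3 shM5 libraries it was above in 45, against 45.2% of all genes, by a median of only 0.07. Root-mean-square distances over the 50 genes said the same: shNC replicate 3 was 0.63 and 0.64 log2 from shNC replicates 1 and 2, but 0.07 to 0.15 from the shM5 libraries, while shNC replicates 1 and 2 were 0.05 apart. Neither the labels nor the methods gave a reason to leave this library out, so the counts, the medians and the main genes in TM4 cells are stated with and without it. Nor did they say which controls were unusual, shNC replicate 3 or shNC replicates 1 and 2. Between shM5 replicate 3 and shNC replicate 3 alone, 32 of the 50 genes were higher in shM5 and 18 lower. The median was 0.02, where 51.2% of all genes were lower.

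Without shNC replicate 3, 7433 of 11026 genes (67.4%) passed the test, 36.5% higher and 30.9% lower. Of the 50 genes, 41 were lower and 3 higher past the threshold, with a median of -0.51, and 6 did not pass (Noc2l, Ftsj3, Nop10, Bysl, Ebna1bp2 and Nhp2). Under the rule of the study, an adjusted p of at most 0.001 with at least a 2-fold change, 8.13% of all genes (3.97% lower) and 8 of the 50 were called, all lower: Nop14, Wdr43, Nop58, Noc3l, Wdr12, Rrp12, Nop56 and Tsr1. Counted by the values alone, the shM5 libraries were below the shNC libraries in 13 of the 50 with all libraries, where 11.1% of all genes did so, and in 42 without shNC replicate 3, where 36.5% did. They were above in 0 (15.7% of all genes) and in 3 (42.5%).

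By role, the transcription genes were at a median of -0.41 with all libraries and -0.57 without shNC replicate 3. Of the 4, Polr1a and Polr1b, which encode the catalytic core of RNA polymerase I, and Ddx21, a helicase of rRNA transcription and processing, were lower past the threshold without shNC replicate 3, and Polr1c was higher. Polr1b was at 24.8, 25.6 and 15.4 RPKM in shNC and at 13.9, 13.7 and 15.5 RPKM in shM5. The chaperones Ncl, Npm1 and Nolc1 were lower by little, with log2 differences of -0.37, -0.27 and -0.31 with all libraries and -0.51, -0.37 and -0.45 without shNC replicate 3, each past the threshold in the second fit.

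The box C/D proteins stood out by size, with a median of -0.74, or -1.10 without shNC replicate 3. Nop56, the partner of Nop58 in the scaffold of this particle, was at 555, 556 and 264 RPKM in shNC and at 254, 252 and 274 RPKM in shM5. In C18-4 cells it was at 178, 176 and 162 RPKM in shNC and at 156, 152 and 165 RPKM in shM5, below every TM4 library. Fbl, the methyltransferase of the same particle, was at 153, 151 and 133 RPKM and at 126, 126 and 139 RPKM, a difference of -0.16 ± 0.08 with all libraries and -0.22 ± 0.05 (adjusted p = 0.00663) without shNC replicate 3. The enzyme thus differed by much less than both scaffold proteins. In the box H/ACA particle, which modifies rRNA through the pseudouridine synthase Dkc1, Gar1 and Dkc1 were at -0.59 and -0.37 with all libraries and lower past the threshold without shNC replicate 3 (-0.85 and -0.54). Nop10 was at -0.06 and Nhp2 at -0.02 with all libraries and at -0.08 and 0.02 without it, and neither passed. Gar1 was at 74.5, 67.6 and 41.1 RPKM in shNC and at 39.7, 39.1 and 38.8 RPKM in shM5, with no overlap.

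Of the 14 processome genes 13 were lower with all libraries, with a median of -0.44, and the same 13 passed without shNC replicate 3, with a median of -0.62. Besides Nop14 and Wdr43 the larger differences in that fit were those of Wdr75 (-0.91, or -0.63 with all libraries) and Heatr1 (-0.81, or -0.57), which belong to the early-binding subcomplex that also holds Wdr43, of Rrp9 (-0.72, or -0.57), a protein of the U3 snoRNA particle, and of Noc4l (-0.71, or -0.48), a partner of Nop14. Utp6 (-0.17, or -0.10) and Utp14a (-0.33, or -0.22) were lower by less. All 5 late small subunit factors were lower, with a median of -0.58 and of -0.76 without shNC replicate 3. Rrp12, an export and maturation factor, was at 29.2, 28.4 and 15.2 RPKM in shNC and at 11.9, 13.1 and 15.1 RPKM in shM5. Only Bysl, at -0.04 (-0.03 with all libraries), did not pass in the second fit.

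Of the 17 large subunit factors 16 were lower with all libraries, with a median of -0.31, and 13 were lower and 1 higher past the threshold without shNC replicate 3, with a median of -0.44. Noc3l, an early assembly factor, was at 33.3, 33.8 and 16.5 RPKM in shNC and at 14.7, 13.1 and 16.3 RPKM in shM5. Within the complex of Pes1, Bop1 and Wdr12 the members differed in direction: without shNC replicate 3 Wdr12 was at -1.12, Pes1 at -0.30 and Bop1 at 0.27, all past the threshold, and with all libraries they were at -0.80, -0.21 and 0.20. In the same fit the helicase Ddx18 (-0.95, or -0.66 with all libraries) and the GTPases Gnl3 (-0.82, or -0.57) and Gnl2 (-0.76, or -0.55) were lower by more than the helicase Ddx56 (-0.16, or -0.08).

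**Figure D3:**
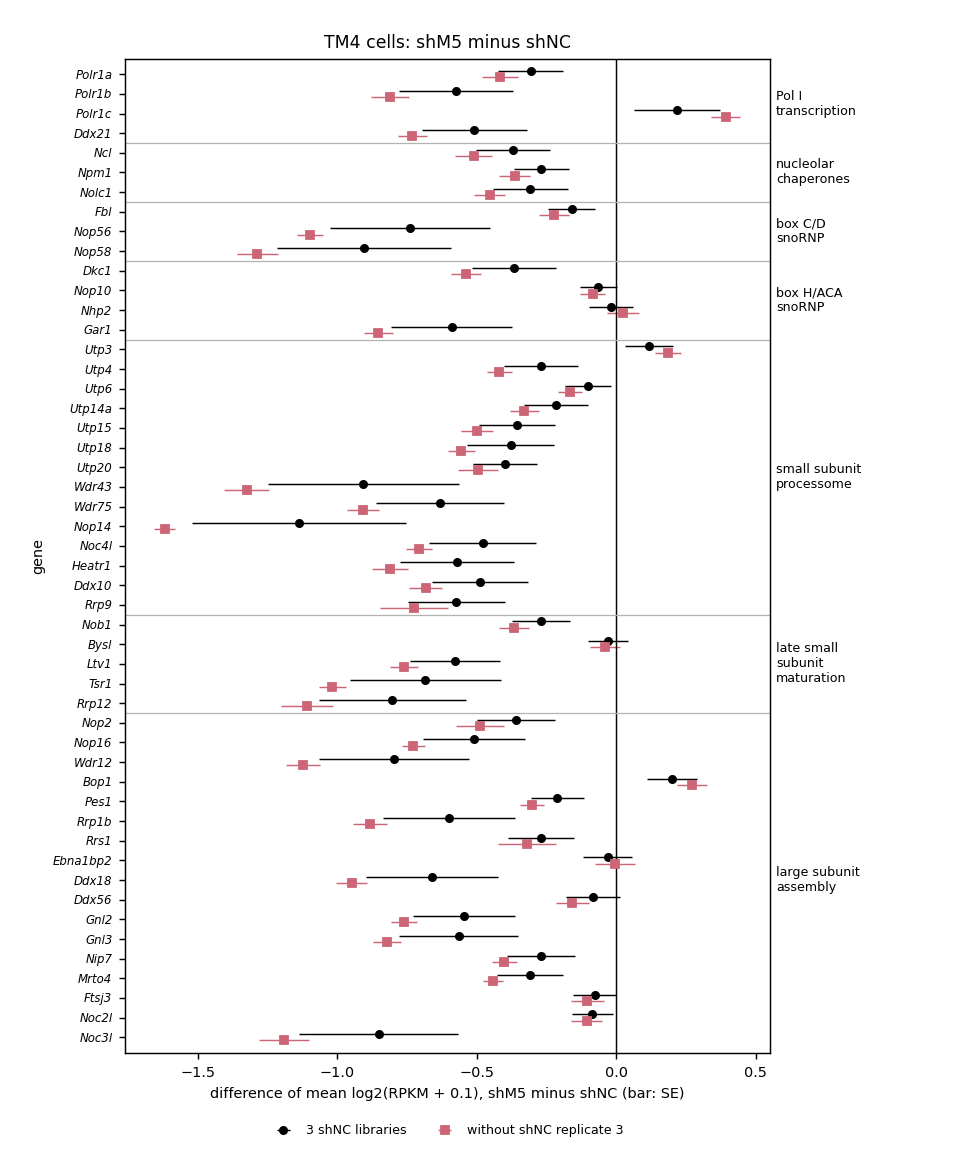
Difference between shM5 and shNC in TM4 cells for each of the 50 genes, by role, on the log2(RPKM + 0.1) scale with its SE from limma, with all 6 libraries (black circles) and without shNC replicate 3 (red squares). Without that library the differences were larger and their SE smaller for most genes, and Polr1c, Bop1 and Utp3 stayed on the higher side.

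The 7 genes that hold snoRNA genes were chosen for this look after their values were seen, so they are described only. All 7 were lower in TM4 shM5 with all libraries, from -0.91 to -0.37, with a median of -0.68 against -0.31 for the other 43 genes. Without shNC replicate 3 they ran from -1.33 to -0.51, with a median of -1.02 against -0.45. For 193 other genes that hold a snoRNA gene the median with all libraries was 0.02. The 8 genes with CACGTG in the promoter had a median of -0.39 and the 35 genes with a promoter entry and no CACGTG one of -0.37, or -0.53 and -0.54 without shNC replicate 3. Between TM4 and C18-4 cells, a comparison described further on, the same sets had medians of 0.22 and 0.55.

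Other gene lists moved along with these genes in TM4 cells, and their part in the result was not tested. Myc was at 352, 346 and 127 RPKM in shNC and at 98.7, 102 and 109 RPKM in shM5, with a log2 difference of -1.28 ± 0.39 (adjusted p = 0.192) with all libraries and -1.76 ± 0.05 (adjusted p = 3.06e-07) without shNC replicate 3. Mxd3, a repressor that competes with Myc for Max, was at 0.95, 0.79 and 8.04 RPKM in shNC and at 7.50, 8.89 and 8.68 RPKM in shM5. Of 11 Myc network genes tested, 6 were higher and 5 lower past the threshold without shNC replicate 3. In that fit 12 of 12 genes of an ATF4 list were lower. This list held Atf4 itself, which encodes the transcription factor of the amino acid and stress response, and targets of it. Its summed level was 2481 and 2464 RPKM in shNC replicates 1 and 2, 1250 RPKM in shNC replicate 3 and 1175 to 1200 RPKM in shM5. Of 16 proliferation genes 14 were higher in the same fit, summing to 985 and 1000 RPKM in shNC replicates 1 and 2 and 1425 to 1518 RPKM in the other 4. The Sertoli cell markers summed to 78.3 and 76.4 RPKM in shNC replicates 1 and 2, 39.7 RPKM in shNC replicate 3 and 33.0 to 37.8 RPKM in shM5, with Nr5a1 and Gata1 at 0 in all 6. Of the peritubular markers, Acta2, a smooth muscle actin, was at 66.4 and 63.3 RPKM in shNC replicates 1 and 2 and at 140 to 194 RPKM in the other 4 libraries, and Cnn1, a calponin of smooth muscle, was at 0.59 and 0.95 RPKM and at 2.36 to 3.48 RPKM, while Myh11 was at most 0.01 RPKM. Both Acta2 and Cnn1 were higher past the threshold without shNC replicate 3 (1.28 and 1.78). Des, from the same list, was at 0.38 to 0.53 RPKM in all 6 libraries, too low for testing. Star, a Leydig cell marker of that list, was at -0.02 without shNC replicate 3. Of 10 p53 targets 6 were lower and 3 higher in that fit. The counts of these lists stand beside 30.9% of all genes lower and 36.5% higher.

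The rest of the ribosome pathway was followed with lists of other factors. None of their genes passed in TM4 cells with all libraries. Without shNC replicate 3, 32 of 50 other large subunit factors were lower and 4 higher, 30 of 42 other small subunit factors were lower and 7 higher, 9 of 13 other genes of RNA polymerase I were lower and 2 higher, 9 of 14 exosome genes were lower and 4 higher, and 6 of 10 snoRNP assembly factors were lower and 2 higher. Their medians were -0.31, -0.32, -0.17, -0.23 and -0.19, all smaller in size than the -0.51 of the 50 genes. Members and lists were chosen with earlier results of these data known, so this difference in size is described only. Of the cytosolic ribosomal protein genes, which encode the ribosome itself, 35 of 80 were higher and 5 lower, with a median of 0.10. Beside these lists, 36.5% of all genes were higher and 30.9% lower in the same fit, with a median of 0.04.

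The same question was then asked in C18-4 cells. Of the 50 genes 23 were higher and 27 lower in shM5, where 50.6% of all 11611 genes tested were lower, and their median was -0.01 log2. None of the 50 was called, where 68 genes of the table were (0.586%, with 0.293% in each direction), and the smallest adjusted p among them was 0.425. None reached an unadjusted p below 0.05 either, where 12.3% of all genes did. The differences ran from -0.23 to 0.22, and their SE ran from 0.07 to 0.31.

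At the lower end, Utp14a, a processome protein, was at 17.4, 17.1 and 14.1 RPKM in shNC and at 14.0, 13.5 and 13.6 RPKM in shM5, the 1 gene of the 50 whose shM5 libraries were all lower (9.55% of all genes). Its difference was -0.23 ± 0.10 (adjusted p = 0.425). Nhp2 was at 131, 120 and 73.2 RPKM in shNC and at 107, 106 and 68.6 RPKM in shM5, a difference of -0.19 ± 0.26. Within each replicate number it was lower in shM5 in 3 of 3 pairs, by -0.29, -0.18 and -0.09, and with the replicate number as a block its adjusted p was 0.0546. Noc2l, a large subunit factor, was at 52.9, 56.3 and 43.8 RPKM in shNC and at 44.5, 45.4 and 44.1 RPKM in shM5, with shNC replicate 3 the lowest of the 6.

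At the upper end, Rrp1b, a nucleolar protein of large subunit assembly, was at 9.38, 10.5 and 8.92 RPKM in shNC and at 10.9, 10.6 and 11.99 RPKM in shM5, and it was the 1 gene with all shM5 libraries higher (9.3% of all genes), by 0.22 ± 0.10 (adjusted p = 0.465). Utp20, of the processome, was at 17.6, 18.4 and 12.6 RPKM in shNC and at 18.9, 19.8 and 16.1 RPKM in shM5. Ftsj3, an rRNA methyltransferase, was at 89.7, 90.0 and 54.2 RPKM in shNC and at 93.4, 92.6 and 68.0 RPKM in shM5. For both, replicate 3 was the lowest library of each group and the groups overlapped, but shM5 was above shNC in 3 of 3 pairs of the same replicate number, by 0.10, 0.10 and 0.35 for Utp20 and by 0.06, 0.04 and 0.33 for Ftsj3. With the block their adjusted p were 0.127 and 0.187.

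In this line replicate 3 stood apart from replicates 1 and 2. The library shNC replicate 3 was below the mean of shNC replicates 1 and 2 in 48 of the 50 genes, with a median of -0.44 log2, where 37.2% of all genes were below. shM5 replicate 3 was below its own pair in 40 of 50, with a median of -0.18 (37.2% of all genes). In 37 of the 50, replicate 3 of both groups was below all 4 other C18-4 libraries, which held for 16.2% of all genes. Dkc1 showed it most, at 44.7, 43.7 and 23.2 RPKM in shNC and at 44.1, 44.1 and 25.4 RPKM in shM5, so that its SD was 32.5% and 28.5% of the group mean while the group means were 37.2 and 37.9 RPKM.

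The exceptions were Nop58 and Nop14, the 2 genes in which replicate 3 of both groups was above the other 4 libraries. Nop14 was at 54.9, 52.0 and 60.1 RPKM in shNC and at 49.5, 50.5 and 65.1 RPKM in shM5, and Nop58 at 133, 133 and 145 RPKM and at 123, 122 and 150 RPKM. Across the 50 genes the deviation of shNC replicate 3 and that of shM5 replicate 3 from their groups had a Pearson r of 0.897 and a Spearman rho of 0.875 (50 genes, which share the same 6 libraries). The ATF4 list was high in the same libraries, with a summed level of 1637 RPKM in shNC replicate 3 and 1562 RPKM in shM5 replicate 3 against 1067 to 1133 RPKM in the other 4, and the part of this in the result was not tested. In TM4 cells the libraries with a high sum of the ATF4 list were those with high members, and in C18-4 cells they were those with low members.

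Within a replicate number, shM5 minus shNC was below 0 in 41 of 50 genes for replicate 1 (median -0.11, 49.4% of all genes below), in 37 for replicate 2 (median -0.06, 51.9% of all genes) and in 4 for replicate 3 (median 0.16, 50% of all genes). The direction of the group as a whole was therefore not shared by the 3 pairs. Same-numbered libraries deviated together in this line, but replicates 1 and 2 of different number did so nearly as much. With the replicate number as a block the limma test called 1386 genes (11.9%) in place of 68, but again 0 of the 50, with the smallest adjusted p of 0.0546 for Nhp2. Without replicate 3 of both groups, 3029 of 11549 genes were called (26.2%), and of the 50, 16 were lower (13.4% of all genes) and 0 higher (12.8%). These 16 were Utp14a, Noc2l, Rrp9, Noc4l, Nhp2, Mrto4, Npm1, Ncl, Fbl, Nop56, Nop2, Ddx21, Bop1, Utp6, Wdr43 and Nop58. Their log2 differences were small, from -0.32 for Utp14a to -0.12 for Nop58, with SE of 0.04 to 0.06 and 2 libraries in each group. Replicate 3 was left out on account of its values. These calls therefore describe that fit and are no valid test of shM5.

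**Figure D4:**
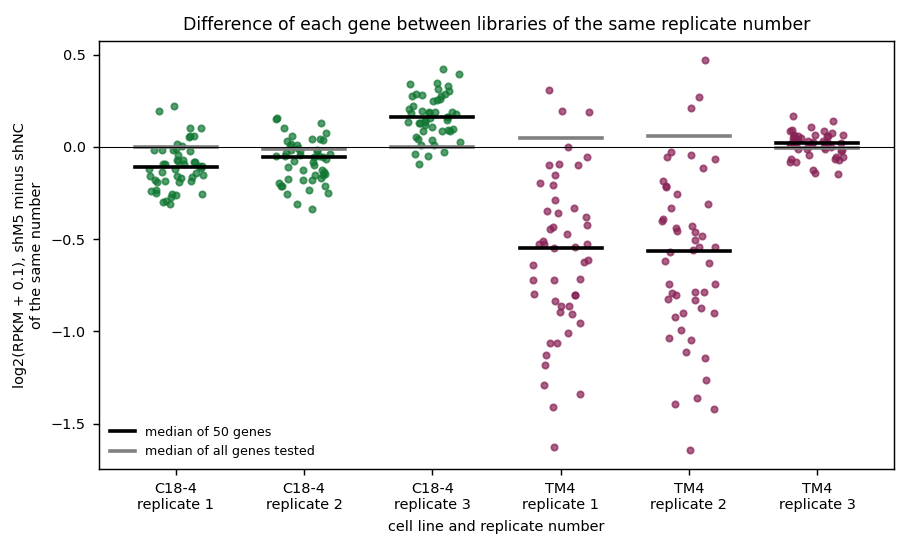
Each point is 1 of the 50 genes, and the vertical axis is log2(RPKM + 0.1) in an shM5 library minus that in the shNC library of the same replicate number, for C18-4 (green) and TM4 (purple). Black bars are medians of the 50 genes, at -0.11, -0.06 and 0.16 in C18-4 and -0.55, -0.56 and 0.02 in TM4, and grey bars are medians of all genes tested.

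Of the other ribosome lists in C18-4 cells, 0 genes passed among 50 large subunit factors, 42 small subunit factors, 13 genes of RNA polymerase I, 14 exosome genes and 10 snoRNP assembly factors. The cytosolic ribosomal protein genes were lower in 76 of 80, with a median of -0.13, and 0 passed. With the replicate block 28 of these were lower past the threshold, 2 of the 50 large subunit factors were higher and 1 lower, 1 of the 14 exosome genes was higher and 1 lower, and 0 passed in the other 3 lists.

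Whether shM5 acted differently in the lines was tested as an interaction over all 12 libraries. The difference of the shM5 effect, TM4 minus C18-4, was negative in 44 of the 50 genes (45.6% of all genes), with a median of -0.38, and 0 of them passed, where 12 of 11773 genes did (0.102%, with 0.068% higher and 0.034% lower). At an unadjusted p below 0.05, 19 were lower (8.24% of all genes) and 0 higher (12.7%), and the smallest adjusted p was 0.192. The largest negative values were those of Nop14 (-1.11 ± 0.43), Noc3l (-0.94 ± 0.32) and Rrp12 (-0.89 ± 0.37), and the largest positive ones those of Polr1c (0.25 ± 0.18), Utp3 (0.21 ± 0.21) and Bop1 (0.19 ± 0.28). Noc3l was at 17.0, 17.8 and 14.1 RPKM in C18-4 shNC and at 17.7, 17.6 and 16.5 RPKM in C18-4 shM5, and Rrp12 at 20.0, 20.3 and 11.7 RPKM and at 19.1, 19.6 and 15.4 RPKM, so neither separated the groups in that line. Polr1c was at 45.7, 40.4 and 42.6 RPKM in C18-4 shNC and at 38.9, 41.3 and 45.6 RPKM in C18-4 shM5, Utp3 at 53.7, 56.8 and 39.1 RPKM and at 50.4, 51.1 and 38.3 RPKM, and Bop1 at 44.6, 42.8 and 24.7 RPKM and at 39.9, 39.2 and 30.7 RPKM, and the groups overlapped in all 3.

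Without TM4 shNC replicate 3, 38% of 11793 genes passed, and of the 50, 26 were lower (16.4% of all genes) and 1, Polr1c, was higher (21.5%). Nop14 was then at -1.59 ± 0.15 (limma adjusted p = 5.48e-05). Fbl (-0.07 ± 0.12) and Npm1 (-0.24 ± 0.16) did not pass, nor did Bop1 (0.26 ± 0.29) and Utp3 (0.28 ± 0.21). The median of the 50 was -0.56 without this library, and -0.21 without C18-4 shNC replicate 3, so control libraries of both lines moved it.

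The lines themselves differed in these genes. Comparing all 6 TM4 with all 6 C18-4 libraries, 29 of the 50 were higher in TM4 cells and 4 were lower past the threshold, where 73% of 11773 genes passed, 29.2% higher and 43.9% lower. The median of the 50 was 0.46 log2, 1.37-fold, and that of all genes was -0.14. Under the rule of the study 4 were higher (Rrs1, Rrp1b, Dkc1 and Nop56), where 9.54% of all genes were. In 24 of the 50 the lowest TM4 library was above the highest C18-4 library (19.9% of all genes), and in 0 it was the reverse (32.9%).

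Rrs1, which brings the 5S particle into large subunit precursors, differed most. It was at 26.9, 24.3 and 18.5 RPKM in C18-4 shNC, at 22.8, 23.0 and 19.0 RPKM in C18-4 shM5, at 59.2, 57.0 and 52.4 RPKM in TM4 shNC and at 42.6, 43.1 and 54.7 RPKM in TM4 shM5, without overlap of the lines. The difference was 1.20 ± 0.10 (adjusted p = 6.40e-07), or 2.29-fold. Rrp1b was at 33.9, 34.7 and 19.0 RPKM in TM4 shNC and at 17.4, 18.5 and 19.7 RPKM in TM4 shM5, against at most 11.99 RPKM in C18-4 cells, a difference of 1.14 ± 0.14 (adjusted p = 1.22e-05). Dkc1 was at 93.9, 98.0 and 67.1 RPKM in TM4 shNC and at 64.1, 63.8 and 70.3 RPKM in TM4 shM5, against at most 44.7 RPKM in C18-4 cells, a difference of 1.05 ± 0.19 (adjusted p = 0.00039).

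The 4 lower genes were Npm1 (-0.38 ± 0.08, adjusted p = 0.00167), Polr1c (-0.36 ± 0.09, adjusted p = 0.00449), Utp6 (-0.31 ± 0.09, adjusted p = 0.00863) and Fbl (-0.29 ± 0.06, adjusted p = 0.00156). Npm1 was at 1971, 1950 and 1468 RPKM in C18-4 shNC and at 1652, 1681 and 1556 RPKM in C18-4 shM5, and at 1500.2, 1574 and 1257 RPKM in TM4 shNC and 1192, 1125 and 1266 RPKM in TM4 shM5, so the lines overlapped. Utp6, of the processome, was at 49.4, 47.1 and 34.1 RPKM and 43.7, 43.7 and 37.8 RPKM in C18-4 cells, and at 37.0, 36.8 and 32.2 RPKM and 33.3, 32.3 and 33.0 RPKM in TM4 cells. Both Npm1, the most abundant chaperone, and Fbl, the methyltransferase, were thus below their C18-4 level while their partners Ncl (0.45 ± 0.11) and Nop56 (1.03 ± 0.16) were above it.

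These directions were checked against another scaling, in which every library was centred on the median of all genes. The median difference of all genes then moved from -0.14 to 0.01, the calls over all genes from 3433 higher and 5163 lower to 4372 higher (37.1%) and 4243 lower (36%), and those of the 50 from 29 higher and 4 lower to 34 higher and 0 lower, with a median of 0.60. Npm1 was then at -0.23 (adjusted p = 0.0535), Polr1c at -0.21 (adjusted p = 0.0512), Utp6 at -0.17 and Fbl at -0.14, so of both scalings these 4 lower calls held only for RPKM as deposited. Utp18, Ddx56 and Ftsj3, which did not pass in either, changed sign.

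**Figure D5:**
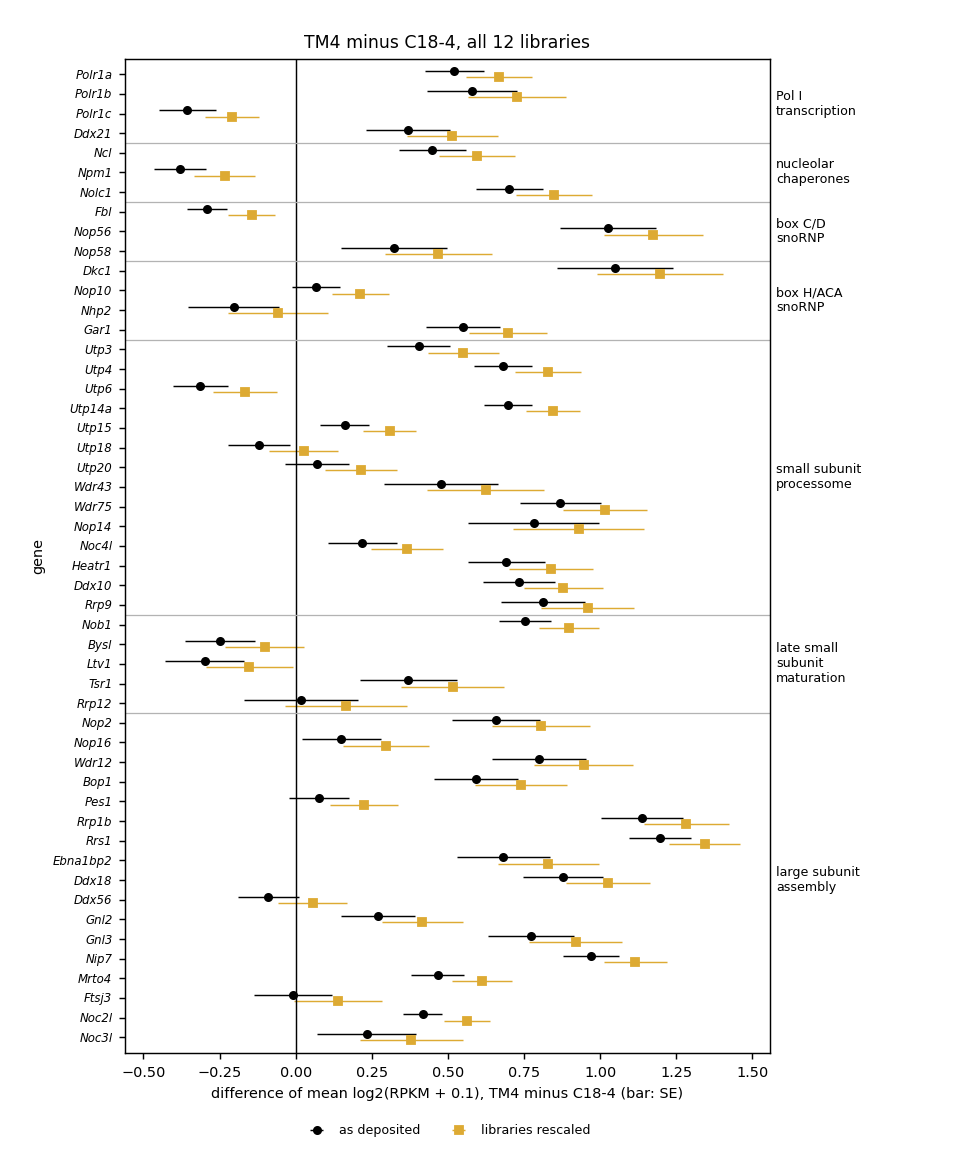
Difference between TM4 and C18-4 cells for each of the 50 genes, by role, on the log2(RPKM + 0.1) scale with its SE from limma, from RPKM as deposited (black circles) and with every library centred on the median of all genes (yellow squares). Most genes were higher in TM4 cells, up to 1.20 for Rrs1, and Npm1, Polr1c, Utp6 and Fbl were among the few on the lower side in both.

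By role, the lines differed at a median of 0.59 in the 17 large subunit factors (11 higher, 0 lower past the threshold), 0.58 in the 14 processome genes (9 higher, 1 lower), 0.45 in the 3 chaperones (2 higher, 1 lower), 0.44 in the 4 transcription genes (3 higher, 1 lower), 0.32 in the 3 box C/D proteins (1 higher, 1 lower), 0.31 in the 4 box H/ACA proteins (2 higher, 0 lower) and 0.02 in the 5 late small subunit factors (1 higher, 0 lower). Nob1, the endonuclease of late small subunit maturation, was the 1 called gene of its role, at 0.75 ± 0.09 (adjusted p = 8.02e-06), while Ltv1 was at -0.30 and Bysl at -0.25 and did not pass. Nip7, a large subunit factor, had the second smallest adjusted p, with 36.0 to 48.9 RPKM in TM4 and 17.2 to 22.7 RPKM in C18-4 libraries.

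Since TM4 shNC libraries differed among themselves, the lines were also compared within each treatment. In shM5 libraries alone 25 of the 50 were higher (29% of 11737 genes) and 8 lower (42.5%), with a median of 0.25. In shNC libraries alone 25 were higher (20.5% of 11810 genes) and 1 lower (34.7%), with a median of 0.69. The number called higher was the same, and 23 genes were called higher over all libraries and in both treatments. Polr1c was the 1 gene called lower in all 3. Nop14, Wdr43, Ddx21 and Polr1b, called higher over all libraries, did not pass in shM5 libraries alone, with differences of 0.23, 0.04, 0.12 and 0.24.

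Myc itself was 1.92 ± 0.22 higher in TM4 cells (adjusted p = 9.89e-06), with 35.0 to 51.9 RPKM in the C18-4 libraries. In the other ribosome lists, 25 of 50 large subunit factors were higher and 8 lower, 17 of 42 small subunit factors were higher and 6 lower, and 44 of 80 cytosolic ribosomal protein genes were higher and 20 lower, beside 29.2% and 43.9% of all genes. In shM5 libraries alone 52 of these ribosomal protein genes were called higher and 15 lower. In shNC libraries alone 13 were called higher and 17 lower. Such counts also depend on the spread within each fit. In the interaction described above, 75 of the 80 were positive, with a median of 0.21, and 0 passed. Of all genes 45.6% were negative there and 0.102% passed.

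The reading of some genes is limited by their annotation. Exons of another gene on the opposite strand covered 34.2% of the exon bases of Tsr1, 20.9% of Noc2l, 18.9% of Utp14a, 9.37% of Bysl and 5.33% of Nop14, and whether reads were counted by strand was not stated, so reads of both genes could not be separated there. Only pseudogenes named after a member were looked for, and Mrto4 has 2 whose reads could be shared with it. Pseudogenes under other names were not counted for any of the 50 genes, so the same limit may hold for others.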

How the data were processed

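The authors made mRNA libraries after oligo(dT) selection, mapped the Illumina reads to reference genes with SOAPaligner and deposited RPKM, read numbers scaled by gene length and library size, for 17995 genes. The genome build and the use of strand were not given in the sources used here. RPKM keeps no read numbers, so no sampling error could be given. The relative value of 1 read, read off the spacing of low values in 25 genes, was 0.971 to 1.02 over the libraries. Only genes whose low values lay close to whole multiples of their smallest value in all libraries were kept. A larger difference in depth could therefore not have shown, and depth was not settled this way. Each of the 12 value columns matched 1 library.

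Genes averaging 0.5 RPKM or more were fitted as log2(RPKM + 0.1) with limma 3.58.1 (R 4.3.3) with a mean-variance trend and Benjamini-Hochberg adjustment, a call being an adjusted p below 0.05. The steps were tested on simulated data. For shM5 against shNC in TM4 cells these took the spread of the shM5 libraries alone. That was smaller than the spread in TM4 shNC, with a median SD of 5.64% against 17.2% of the mean over the 50 genes. The wide spread of the real controls was therefore not covered there. Per comparison, the 3 largest differences in each direction and the most abundant gene of each role were described in full; other genes were chosen with values seen. Members and lists were chosen with earlier results of these data known. In C18-4 cells same-numbered libraries deviated together from their group means (correlations across genes of 0.439, 0.409 and 0.631). Replicates 1 and 2 of different number did so nearly as much (0.341 and 0.345), while replicate 3 went against both (-0.514 to -0.467). The numbers thus set replicate 3 apart, and a pairing of replicates 1 and 2 was not settled. In TM4 cells the same-numbered correlations were 0.0729, 0.0489 and 0.127. snoRNA genes and motifs were found with Python 3.11.15 and pandas 2.3.3 in GENCODE and RefSeq records, matched by symbol. Alternatives were another pseudocount, filter, scaling or variance trend, the rule of the study, a replicate block and leaving out libraries.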

Additional observations from a re-analysis of the deposited data

How the results depend on the processing

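Results for the 50 genes kept their direction and their count within 1.5 times under another pseudocount, filter or variance trend. In C18-4 cells the median over the 50 turned positive without shNC replicate 1 (0.093), without shNC replicate 2 (0.071) and without shM5 replicate 3 (0.066), with a range of -0.13 to 0.09 over single libraries left out, Ftsj3 ranged from -0.10 (turned, without shNC replicate 3) to 0.29 and Nhp2 from -0.45 to 0.024 (turned, without shM5 replicate 3), and 16 genes were called lower without replicate 3 of both groups. In TM4 cells leaving out 1 library gave 0 to 3 genes called higher and 0 to 41 lower, the upper values without shNC replicate 3, and without replicate 3 of both groups 3 were higher and 43 lower with a median of -0.58. The rule of the study without shNC replicate 3, added after the data were seen, called 8 lower. The interaction gave 0 to 1 higher and 0 to 26 lower, again with TM4 shNC replicate 3 left out for the upper values. Between the lines, genes called lower went from 4 to 0 with rescaled libraries and under the rule of the study, which called 4 higher, to 7 with the replicate block, to 4 to 8 with 1 library left out (8 without C18-4 shNC replicate 3), and to 1 in shNC (median 0.69) and 8 in shM5 libraries alone (median 0.25). Without TM4 shNC replicates 1 and 2, added after the data were seen, 26 were higher and 6 lower. The cause of these changes was not tested.

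Over all genes the C18-4 count of 68 became 4 without a filter, 45 without the variance trend, 0 under the rule of the study, 151 in 1 fit of all 12 libraries and 0 to 237 with 1 library left out. The replicate block gave 1386, or 1274 with rescaling added, and it changed no other call among the 50 genes in C18-4 cells. In TM4 cells, where the numbers did not pair the libraries, the block called 0 genes and left 22 of the 50 lower at an unadjusted p below 0.05, and in the interaction it called 0 of the 50. The interaction count of 12 became 27 with a pseudocount of 1, 21 without a filter, 6 with rescaling, 22 without the trend, 2 with the block and 0 under the rule of the study. With 3 libraries a group and no read numbers, small differences of single genes could not be resolved.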
